A study of Homo sapiens with 2 samples.

Results

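The genes that set and reverse the phosphorylation of eIF2alpha were examined in HEK293T cells that had recovered from heat shock. The 6 genes were chosen by name and matched by symbol to the 57736 Ensembl genes of the deposited tables: the 4 kinase genes EIF2AK1, EIF2AK2, EIF2AK3 and EIF2AK4, and the genes of the 2 regulatory phosphatase subunits, PPP1R15A and PPP1R15B. HEK293T is a line of human embryonic kidney cells, labelled wild type, and by the labels these cells spent 20 min at 43 °C and then 6 h at 37 °C, while the study's text describes a longer heating step. The libraries were made from poly(A)+ RNA, form 1 group of 2 replicates that were lysed separately, and share that treatment. The untreated cells of the study are not analysed here, so the values give the state after recovery and no change with heat. Whether the replicates came from separate cultures is not stated, so every p-value below measures only the difference between these libraries, which may be technical.

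eIF2 carries the initiator methionyl-tRNA to the ribosome. When its alpha subunit is phosphorylated, it blocks its exchange factor eIF2B, most translation initiation falls, and a few mRNAs with upstream open reading frames, such as that of ATF4, are translated better. This is the integrated stress response. EIF2AK1 encodes HRI, the kinase known for haem shortage, proteotoxic stress and signals from mitochondria, EIF2AK2 encodes PKR, which is activated by double-stranded RNA, EIF2AK3 encodes PERK, the endoplasmic reticulum kinase of the unfolded protein response, and EIF2AK4 encodes GCN2, which responds to uncharged tRNA and stalled ribosomes. PPP1R15A (GADD34, the stress-inducible subunit) and PPP1R15B (CReP, the constitutive subunit) direct protein phosphatase 1 to eIF2alpha and so reverse the mark. The kinases are switched on as proteins, so mRNA levels do not measure their activity.

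Replicate 1 held 22529828 expected counts and replicate 2 held 26890199. An expected count is the number of reads assigned to a gene after reads that match several genes have been shared out. The limit that a count of 0 sets is 3 counts, which is 0.133 CPM (the count scaled to the library total) in replicate 1 and 0.112 CPM in replicate 2, and it covers counting error only. Of the fixed kidney epithelial markers, 4 of 10 were detected, with summed levels of 72.7 to 88.5 TPM in the libraries, and UMOD was listed at 0. Of 7 matched neuronal markers 6 were detected (480 to 495 TPM), and of 7 matched markers of other lineages 2 were detected (27.0 to 30.6 TPM), with PTPRC and CD3E listed at 0. The part of these genes in the values below was not tested.

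The genes lie on 5 chromosomes of GRCh37. EIF2AK1 (ENSG00000086232) spans chr7:6061878-6098806 on the minus strand. EIF2AK2 (ENSG00000055332) spans chr2:37326353-37384665 and EIF2AK3 (ENSG00000172071) spans chr2:88856259-88991036, both on the minus strand. EIF2AK4 (ENSG00000128829) spans chr15:40226316-40327792 on the plus strand. PPP1R15A (ENSG00000087074) is the most compact, with 3848 bases at chr19:49375469-49379316 on the plus strand, and PPP1R15B (ENSG00000158615) spans chr1:204365620-204381015 on the minus strand.

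Promoter windows from RefSeq (table build GRCh38.p14) were available for 5 of the 6 genes, EIF2AK1 being the other. Each of the 5 windows had 1 exact match in GRCh37. The window of PPP1R15A is shown because this gene is known as the inducible subunit, that of PPP1R15B because it is its constitutive counterpart, and that of EIF2AK2 because the gene is known to be induced by interferon. Each runs from 250 bases before the RefSeq start site through the first 20 bases of the transcript, 5′ to 3′ on the gene's strand, at chr19:49375428-49375697 (plus), chr1:204380926-204381195 (minus) and chr2:37384104-37384373 (minus) of GRCh37. Capitals mark the motif matches.
PPP1R15A: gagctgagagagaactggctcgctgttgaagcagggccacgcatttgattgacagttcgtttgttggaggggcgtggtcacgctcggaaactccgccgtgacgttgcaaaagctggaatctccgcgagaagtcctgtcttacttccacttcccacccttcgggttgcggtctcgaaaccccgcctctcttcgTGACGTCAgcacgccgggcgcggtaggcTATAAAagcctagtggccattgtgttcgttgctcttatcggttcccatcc
PPP1R15B: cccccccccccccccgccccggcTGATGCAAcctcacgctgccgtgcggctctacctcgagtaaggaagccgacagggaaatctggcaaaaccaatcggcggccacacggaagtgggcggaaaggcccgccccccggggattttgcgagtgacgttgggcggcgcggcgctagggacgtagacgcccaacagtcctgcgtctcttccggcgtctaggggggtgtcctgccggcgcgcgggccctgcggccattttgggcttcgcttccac
EIF2AK2: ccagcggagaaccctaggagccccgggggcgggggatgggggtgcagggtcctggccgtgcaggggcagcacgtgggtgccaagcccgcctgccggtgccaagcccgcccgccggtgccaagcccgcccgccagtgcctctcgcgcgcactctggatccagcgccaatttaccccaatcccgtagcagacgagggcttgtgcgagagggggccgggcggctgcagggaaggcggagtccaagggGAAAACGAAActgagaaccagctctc

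The letters of 6 motifs were searched on both strands of the whole 300-base windows. In PPP1R15A the cAMP response element TGACGTCA began 58 bases before the start site, and the TATA box TATAAA began 30 bases before it. These were found in 1.85% and 11.5% of all 35116 promoters of the table. In PPP1R15B the C/EBP-ATF element TGATGNAA began 227 bases before the start site (3.62% of all promoters). In EIF2AK2 the interferon-stimulated response element GAAANNGAAA began 6 bases before the start site and ran into the transcript (3.57% of all promoters). The heat shock element letters GAANNTTC and TTCNNGAA, in 6.77% and 7.74% of all promoters, were in none of the 5 windows, and EIF2AK3 and EIF2AK4 held no match to any of the motifs. Only the RefSeq start site of each gene was searched, and the windows of EIF2AK2 and EIF2AK3 lie inside the gene spans given above. Annotated starts further upstream were thus not covered. A match of letters is a description and shows no binding.

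All 6 genes were detected, which here means at least 1 TPM in both libraries. TPM, the deposited measure of abundance, is scaled to transcript length and to the library, so TPM levels can be compared between genes. EIF2AK1 stood far above the others. Its level was 179.5 TPM in replicate 1 and 177.3 TPM in replicate 2, or 178.4 ± 1.56 TPM (mean and SD, n = 2 here and below), from 6354 and 7004 expected counts. The 95% credibility bounds of the quantification were 166.3 to 183.6 TPM and 166.3 to 183.2 TPM. Both libraries thus gave EIF2AK1 nearly the same level per length, summed over all its listed transcripts, coding or not. By this mean TPM EIF2AK1 ranked at percentile 94.6 of the 12367 detected protein-coding genes.

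The other 3 kinase genes lay between 18.5 and 33.8 TPM in every library. EIF2AK4 measured 27.2 TPM in replicate 1 and 33.8 TPM in replicate 2 (30.5 ± 4.65), from 1884 and 2399 expected counts, with bounds of 23.8 to 30.6 and 30.0 to 37.0 TPM. EIF2AK2 measured 22.2 TPM and 29.8 TPM (25.95 ± 5.37), from 2808 and 4395 expected counts, with bounds of 21.0 to 25.1 and 27.9 to 32.3 TPM. For the PKR transcript the bounds of the libraries did not overlap, whereas for the GCN2 transcript they did. EIF2AK3 measured 18.5 TPM and 21.2 TPM (19.9 ± 1.94) from the fewest reads of the 6 genes, 372 and 551 expected counts. Its bounds, 15.2 to 21.2 and 17.8 to 23.9 TPM, overlapped. EIF2AK4 ranked at percentile 64.2, EIF2AK2 at 59.9 and EIF2AK3 at 51.9.

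The phosphatase subunit genes were near the middle of the detected protein-coding genes, whose median was 18.6 TPM. PPP1R15B measured 17.4 TPM in replicate 1 and 22.7 TPM in replicate 2 (20.0 ± 3.73), from 1642 and 2436 expected counts. Its bounds, 16.03 to 17.65 and 21.1 to 22.9 TPM, did not overlap between the libraries. PPP1R15A measured 16.8 and 17.8 TPM (17.3 ± 0.757), from 706 and 855 expected counts, with overlapping bounds of 15.1 to 17.5 and 16.2 to 18.6 TPM. PPP1R15A was the lowest of the 6 genes by TPM in both libraries, at percentile 47.97 by mean, and PPP1R15B was at percentile 52.2.

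In the order of mean TPM, EIF2AK1, EIF2AK4, EIF2AK2, PPP1R15B, EIF2AK3, PPP1R15A, the ranges of neighbouring genes over the libraries overlapped for EIF2AK4 and EIF2AK2, for EIF2AK2 and PPP1R15B, and for PPP1R15B and EIF2AK3. Those neighbours are not separated beyond the spread of 2 libraries. The gap between EIF2AK1 and EIF2AK4 and the small gap between EIF2AK3 and PPP1R15A were wider than that spread. The credibility bounds of EIF2AK3 and PPP1R15A nevertheless overlapped in both libraries, so their order is not firm. The median of the 6 mean levels was 23.0 TPM.

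**Figure D1:**
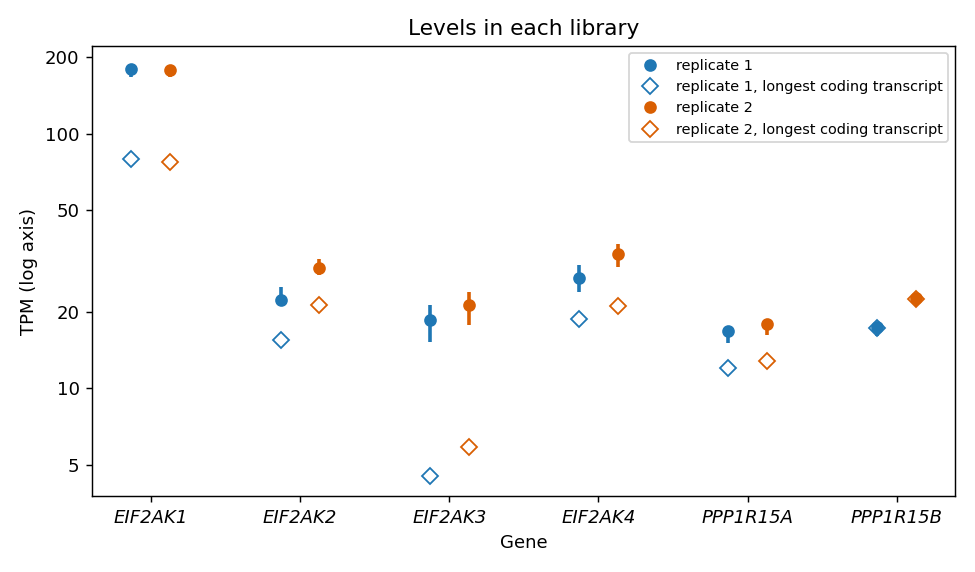
Level of each gene in TPM (log axis) in replicate 1 (blue) and replicate 2 (orange). Filled points are the deposited TPM with bars for the 95% credibility bounds, and open diamonds are the TPM recomputed for the longest protein-coding transcript. EIF2AK1 lies near 178.4 TPM, the other genes lie between 16.8 and 33.8 TPM, and EIF2AK3 has the widest gap between point and diamond.

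The level per length rests on the length that the quantification gave each gene, an average over its transcripts weighted by their estimated abundance. This length was the same in both libraries for PPP1R15B, 5227 bases, or 99.4% of its only listed transcript of 5259 bases. For PPP1R15A it was 2357 and 2356 bases, close to the shorter of its 2 listed transcripts, of 2350 and 3252 bases. The phosphatase subunit genes therefore had nearly fixed lengths. The kinase genes did not.

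EIF2AK3 had a weighted length of 1150 bases in replicate 1 and 1298 in replicate 2, 25.4% and 28.6% of its 4536-base protein-coding transcript, the only protein-coding one of its 4 transcripts in the reference annotation. The tables list 6 transcripts for this gene, and the shortest in the reference has 582 bases. EIF2AK1 had weighted lengths of 1988 and 1951 bases, 45.1% and 44.2% of its 4411-base transcript, and its other listed transcripts in the reference have 573 to 905 bases. EIF2AK2 had 6998 and 7165 bases, between its 4343- and 9975-base transcripts. EIF2AK4 had 3841 bases in replicate 1 and 3466 in replicate 2, or 69.4% and 62.6% of its longest protein-coding transcript of 5538 bases.

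**Figure D2:**
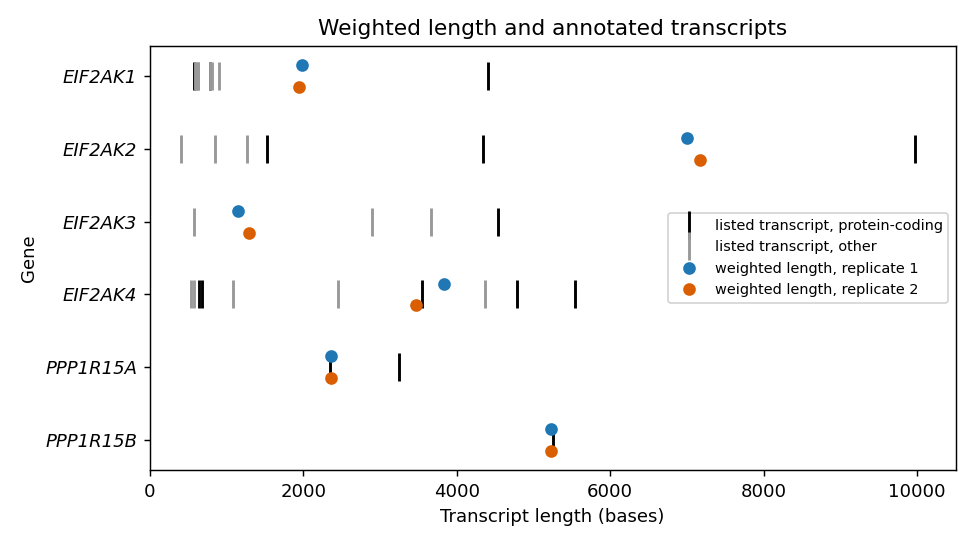
Weighted transcript length of each gene in replicate 1 (blue) and replicate 2 (orange), in bases, beside the annotated lengths of its listed transcripts (black ticks, protein-coding; grey ticks, other classes). The points lie at 99.4% of the annotated length for PPP1R15B and at 25.4% and 28.6% of the longest protein-coding transcript for EIF2AK3.

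When each TPM was recomputed for the longest protein-coding transcript, a choice made after the values were seen, EIF2AK1 was still the highest. It measured 79.8 and 77.3 TPM on this scale, for which no percentile was computed. EIF2AK3 became the lowest of the 6 genes, at 4.54 and 5.91 TPM, below PPP1R15A at 12.1 and 12.9 TPM in both libraries. The ranges of EIF2AK4 (18.8 and 21.1 TPM), PPP1R15B (17.3 and 22.5 TPM) and EIF2AK2 (15.5 and 21.3 TPM) overlapped. On the plain CPM scale, which is not per length, the most reads also went to EIF2AK1 and the fewest to EIF2AK3 (282.0 and 260.5 CPM against 16.5 and 20.5 CPM).

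Of the summed TPM of the 4 kinase genes, 247.4 in replicate 1 and 262.1 in replicate 2, EIF2AK1 made up 72.6% and 67.7% (70.1% ± 3.47). EIF2AK4 made up 11.0% and 12.9%, EIF2AK2 made up 8.95% and 11.3%, and EIF2AK3 made up 7.48% and 8.10%. EIF2AK1 was the largest component on every scale computed, with a mean of 64.4% per longest protein-coding transcript and 52.2% of the reads in CPM. EIF2AK2, which has the longest transcripts of the 4, took 24.6% and 30.6% of the reads in CPM.

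**Figure D3:**
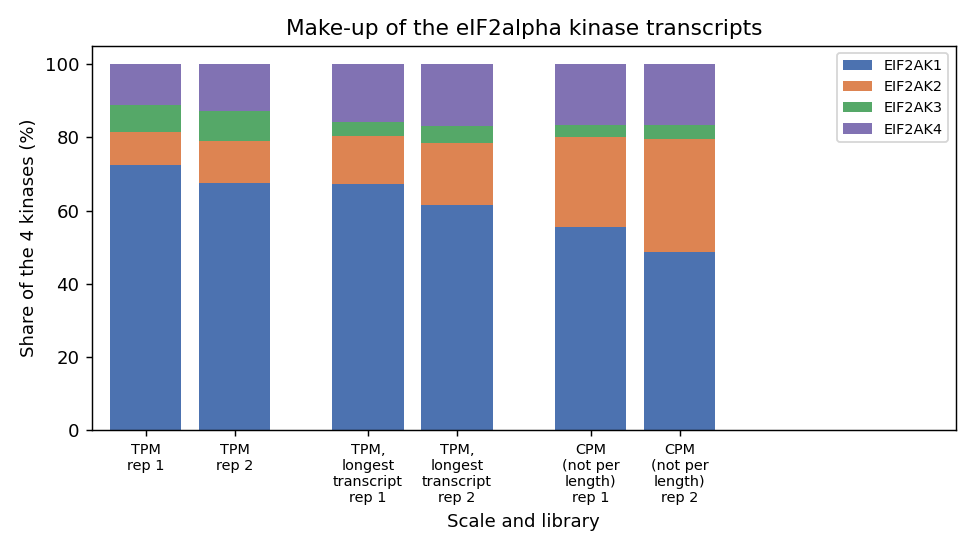
Share of each kinase gene in the sum of the 4 (%), stacked, for each library on 3 scales: deposited TPM, TPM for the longest protein-coding transcript, and CPM. EIF2AK1 (blue) falls from 72.6% and 67.7% by TPM to 55.6% and 48.8% by CPM, and stays the largest share.

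The inducible and the constitutive phosphatase subunit had similar TPM. PPP1R15A over PPP1R15B was 0.965 in replicate 1 and 0.787 in replicate 2 (0.876 ± 0.126). On the scale of the longest protein-coding transcript the mean ratio was 0.635. That scale uses the 3252-base transcript of PPP1R15A, although the weighted length of this gene was close to the 2350-base one. In CPM the ratio was 0.390, because PPP1R15B is the longer transcript. PPP1R15A was the lower of the pair on each scale in both libraries, although in replicate 1 the credibility bounds of their TPM overlapped. The summed TPM of the kinase genes was 7.25 and 6.47 times that of the phosphatase subunit genes, which summed to 34.2 and 40.5 TPM.

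Some reads of these genes could have come from neighbours. EIF2AK1 shares 532 exon bases with AIMP2, a scaffold gene of the tRNA synthetase complex on the opposite strand, which measured 123.5 and 105.3 TPM. Of the 5622 different 50-base windows of EIF2AK1 transcripts, the read length, 484 are also found in AIMP2 on 1 strand or the other. In all, 9.27% of the EIF2AK1 windows, 10.4% of those of EIF2AK3, 8.04% of those of PPP1R15B and 4.57% of those of EIF2AK2 occur in transcripts of other genes, and at most 0.061% of those of PPP1R15A and EIF2AK4. The sources used here do not say whether the counting used strand, so reads of EIF2AK1 and AIMP2 cannot be fully told apart. The posterior SD of the assigned reads, which reflects the sharing of reads between genes, was at most 5.87 reads for any of the 6 genes. It cannot reflect sharing with genes that were not quantified, such as ENSG00000288934, which holds 404 of the PPP1R15B windows. EIF2AK2 overlaps GPATCH11, on the opposite strand at 15.1 and 24.5 TPM, by 35 exon bases, and the pseudogene ARL14EPP1, at 0.17 and 0.15 TPM, by 401, and the 781 bases that EIF2AK3 shares with an antisense lncRNA gene belong to a gene listed at 0.

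The libraries were next compared gene by gene on rounded expected counts. An exact two-sided binomial test asked whether the split of a gene's reads departed from the split of the libraries (TMM scaling, Benjamini-Hochberg adjustment over the 19714 genes that summed to 10 or more counts, threshold 0.05). It compares these libraries and not conditions. EIF2AK2, EIF2AK3 and PPP1R15B were higher in replicate 2, EIF2AK1 was higher in replicate 1, and EIF2AK4 and PPP1R15A did not pass. That is 4 of 6 genes, where 43.1% of all genes and 58.3% of detected protein-coding genes passed. Genes that passed and were higher in replicate 2 were 3 of 6, against 20.9% of all genes and 26.01% of detected protein-coding genes.

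The log2 ratio of replicate 2 over replicate 1 in counts was 0.34 for EIF2AK2 (exact binomial test, adjusted p = 5.793e-22), 0.27 for PPP1R15B (adjusted p = 4.457e-08) and 0.26 for EIF2AK3 (adjusted p = 0.0176). EIF2AK1 had a ratio of -0.16 (adjusted p = 5.13e-10), a fold of 0.893. EIF2AK4 had a ratio of 0.04 (adjusted p = 0.468) and PPP1R15A of -0.03 (adjusted p = 0.837). The higher TPM of EIF2AK4 in replicate 2 was thus not matched by a like difference in its counts, and its weighted length was shorter in that library.

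These ratios moved with the GC content of the transcripts. Among 13544 genes with a GC value and at least 100 counts in sum, in 10 classes of GC content, the median log2 ratio fell from 0.65 in the lowest class, where EIF2AK2 lies (38.7% GC), to -0.28 in the highest. In the class of EIF2AK3 (40.9% GC) the median was 0.37, and in the class of EIF2AK4 (44.8%) and PPP1R15B (44.3%) it was 0.07. EIF2AK1 (47.2%) lies in a class with a median of -0.03 and PPP1R15A (58.5%) in a class with a median of -0.24. The libraries differ in this way across the whole table, and its source was not tested.

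With the GC trend removed, the same test gave 26.8% of 19048 genes and 34.6% of detected protein-coding genes. It again gave 4 of the 6, but not the same 4. EIF2AK2 turned to -0.23 (exact binomial test, adjusted p = 5.498e-10), below the median of genes of like GC content. EIF2AK3 turned to -0.09 and was no longer called (adjusted p = 0.578), and EIF2AK4 turned to -0.05 (adjusted p = 0.518). PPP1R15A turned to 0.21 and was now called (adjusted p = 0.0216). EIF2AK1 at -0.14 (adjusted p = 2.607e-07) and PPP1R15B at 0.15 (adjusted p = 0.0069) kept both direction and call. An edgeR exact test that assumes a biological coefficient of variation of 0.1 called 0 of the 6 genes and 7.24% of all genes, and 0 of the 6 had an unadjusted p below 0.05 in it. The coefficient estimated by edgeR from the libraries was 0.200.

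**Figure D4:**
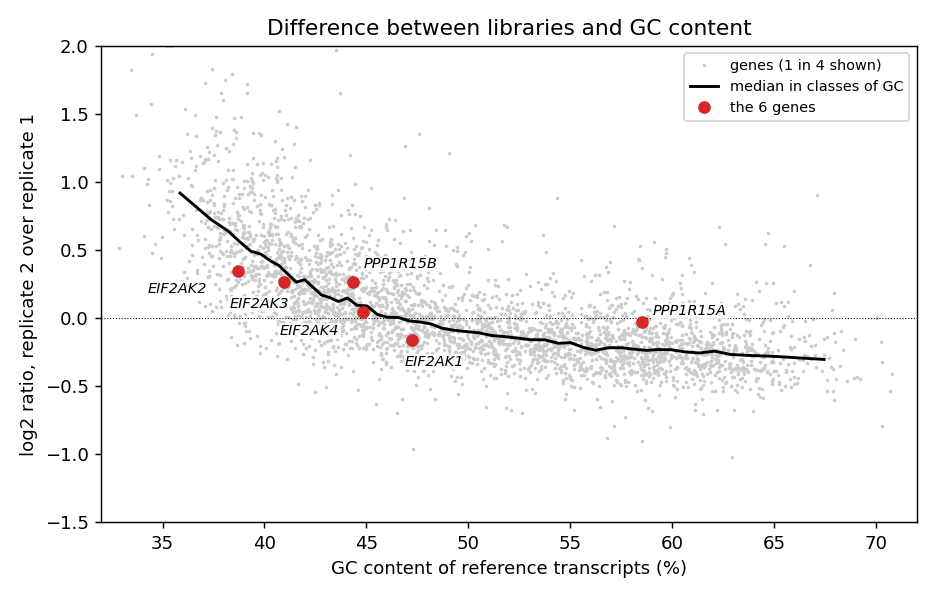
Log2 ratio of expected counts, replicate 2 over replicate 1 (TMM scaled), against the GC content of the reference transcripts (%), for a regular subset of 13544 genes (grey), with the median in 50 classes of GC (line) and the 6 genes (red); grey points beyond the axis limits are not drawn. EIF2AK2 at 0.34 lies below the line and PPP1R15A at -0.03 above it.

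The rest of the pathway was read from 7 lists of 45 genes in all, of which 43 were detected. The median of the 45 mean levels was 56.2 TPM, against 23.0 TPM for the 6 kinase and phosphatase subunit genes and 18.6 TPM for detected protein-coding genes. In the binomial test 33 of the 43 differed between the libraries, 12 of them higher in replicate 2. Of all genes 43.1% differed, and of detected protein-coding genes 58.3%. Those that differed and were higher in replicate 2 made up 20.9% and 26.01%. With the GC trend removed 23 of the 43 differed, 5 of them higher in replicate 2, where 26.8% of all genes and 34.6% of detected protein-coding genes differed. Before that removal, 4371 of the 19714 genes and 3993 of the 12367 detected protein-coding genes differed and were higher in replicate 1. The counts of each list below are to be read against these shares. Shares by direction were not computed with the GC trend removed, so the directions given for that test have no background beside them.

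By TPM, the transcript of the kinases' substrate was more abundant than those of 5 of the 6 genes. EIF2S1, which encodes eIF2alpha, measured 61.6 and 55.3 TPM (58.4 ± 4.45), above each gene but EIF2AK1 in both libraries. It had 1230 and 1544 expected counts, fewer than EIF2AK2, EIF2AK4 and PPP1R15B in each library. Its TPM was not recomputed for the longest protein-coding transcript. The beta subunit gene EIF2S2 measured 91.1 and 128.2 TPM and the gamma subunit gene EIF2S3 measured 209.8 and 223.3 TPM. The log2 ratio of EIF2S1 in counts was 0.02, and with the GC trend removed it became -0.54 and was called (exact binomial test, adjusted p = 6.47e-21). All 5 eIF2B subunit genes were detected, from EIF2B3 at 19.0 and 21.7 TPM to EIF2B2 at 74.4 and 64.3 TPM, and 4 of the 5 were higher in replicate 1, or 2 of the 5 with the GC trend removed, when EIF2B1 and EIF2B4 lost their call. Thus by TPM the transcripts of the target and of the exchange factor it blocks lay at or above EIF2AK2, EIF2AK3 and EIF2AK4. EIF2B3, which lay among them, was the exception.

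The 6 genes of initiator tRNA delivery and eIF2 assembly were all detected, with EIF5, the GTPase-activating protein of eIF2, highest at 300.9 and 347.6 TPM. MCTS1, whose product works with DENR in reinitiation, was the lowest at 32.8 and 33.0 TPM. EIF2A was 105.3 TPM in replicate 1 and 179.8 TPM in replicate 2, with a log2 ratio in counts of 0.61 that became 0.12 with the GC trend removed. The ratio of MCTS1 also fell, from -0.13 to -0.74, and MCTS1 was then called. In this list 4 of 6 differed between the libraries, 3 of them higher in replicate 2. With the GC trend removed 3 differed, and EIF2A was the 1 higher in replicate 2.

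All 13 genes of the list of kinase activators and inhibitors were detected. For HRI, these are OMA1 and DELE1, the mitochondrial protease and the messenger it cleaves, at 56.2 and 74.0 TPM and at 47.4 and 43.0 TPM. For PKR, the activator gene PRKRA measured 30.7 and 32.4 TPM, and the inhibitor genes TARBP2 and ADAR measured 45.6 and 36.0 TPM and 111.3 and 113.1 TPM. ADAR, which edits double-stranded RNA, was thus above EIF2AK2 itself in both libraries. For PERK, HSPA5, the chaperone BiP that holds it inactive, measured 107.3 and 116.2 TPM, and DNAJC3, the inhibitor P58IPK, measured 9.29 and 12.3 TPM. For GCN2, the activator gene GCN1 measured 88.2 and 75.4 TPM and the inhibitor gene IMPACT 37.5 and 47.0 TPM. The ribosomal stalk genes RPLP0, RPLP1 and RPLP2, whose products can activate GCN2, were far higher, from 359.9 to 2252 TPM. Of the 13 genes 10 differed between the libraries, 7 of them higher in replicate 1. With the GC trend removed 8 differed, all 8 higher in replicate 1, a direction for which no background share was computed. OMA1, DELE1, ADAR and DNAJC3 lost their call, and PRKRA and the adaptor gene NCK1 (0.10, then -0.42) gained one.

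The catalytic partners of PPP1R15A and PPP1R15B were each above them in both libraries. PPP1CA measured 190.7 and 146.9 TPM, PPP1CC measured 178.1 and 195.3 TPM, and PPP1CB measured 35.4 and 52.8 TPM. PPP1CB, of low GC content (38.3%), had a log2 ratio in counts of 0.65, which became 0.03 with the GC trend removed and lost its call, while PPP1CC went from 0.05 to -0.16 and gained one. Of these 3 genes 2 differed between the libraries in either test.

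Downstream, ATF4, the transcription factor translated when eIF2alpha is phosphorylated, measured 1106 and 981.9 TPM. The other effectors with upstream open reading frames were low, ATF5 at 12.1 and 10.2 TPM and DDIT3, which encodes CHOP, a factor known to raise PPP1R15A transcription, at 4.14 and 4.64 TPM. Of these 3 effectors 2 differed between the libraries, both higher in replicate 1, and 1 with the GC trend removed. Of 12 further targets of the response 10 were detected. ASNS, the asparagine synthetase gene, was highest at 236.1 and 217.8 TPM, followed by DDIT4 at 146.9 and 151.4 TPM. TRIB3, a pseudokinase gene, measured 11.4 and 9.33 TPM, below PPP1R15A in both libraries. CHAC1, which encodes an enzyme that degrades glutathione, measured 18.3 and 15.9 TPM, a range that overlaps that of PPP1R15A. FGF21 (0.07 and 0.17 TPM) and GDF15 (0.17 and 0.08 TPM), which encode secreted stress signals, stayed below the detection threshold, with 1 to 4 expected counts in a library. Among the 10 tested targets 9 differed between the libraries, 6 of them higher in replicate 1. With the GC trend removed 4 differed, 3 of them higher in replicate 2, again without a background share by direction.

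**Figure D5:**
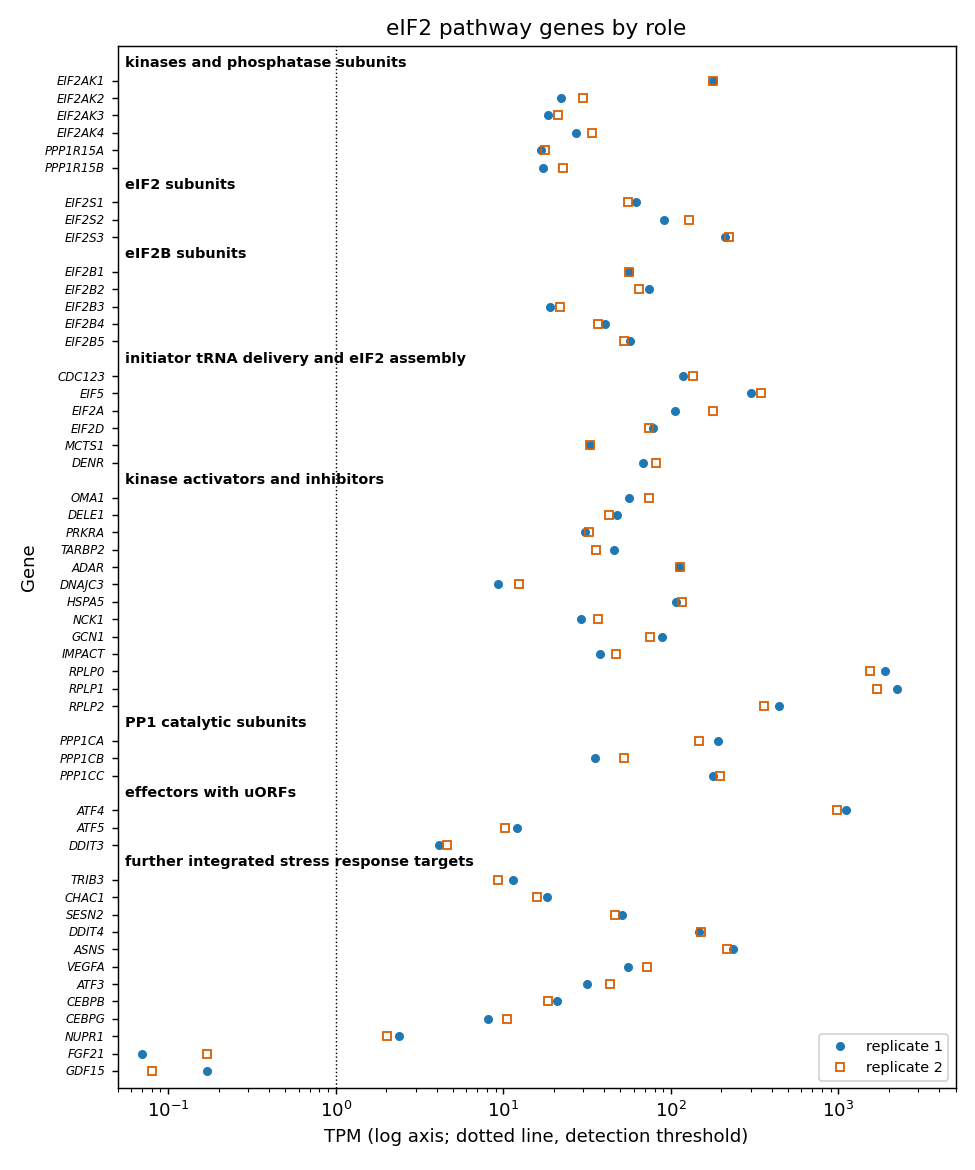
TPM (log axis) of the 6 genes and of 45 pathway genes by role in replicate 1 (blue circles) and replicate 2 (orange squares), with a dotted line at the detection threshold of 1 TPM. ATF4 and the ribosomal stalk genes are the highest, FGF21 and GDF15 lie below the line, and EIF2AK1 lies apart from the other kinase genes.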

How the data were processed

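Poly(A)+ RNA was sequenced as 50 bp reads in 2 libraries of 1 group, as the labels give it, although their molecule field reads genomic DNA. The submitters' processing notes list Trimmomatic 0.36, STAR 2.6.1c and RSEM 1.3.1 with hg19 (GRCh37.p13). The methods name featureCounts in place of RSEM, and the deposited columns are those of RSEM. Expected counts, TPM, FPKM and their bounds were deposited by the authors. Their table for the whole series gave counts within 0.09 of the summed libraries for all 6 genes.

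Identifiers were matched to a GENCODE annotation of GRCh37 of another release (96.1%), which gave positions, lengths and GC content. Expected counts were rounded. TMM factors (0.983 and 1.02, edgeR 4.0.16) set the split of the exact binomial test (scipy 1.17.1), which was tested on simulated data. The simulated counts held set changes, a GC trend and counting error only, so that trial does not cover wider spread between libraries. Log2 ratios used a pseudocount of 0.5 count. GC trends were medians in 50 classes, interpolated. A chi-square of 37.5 per gene showed the libraries to be distinct. The 6 genes and all lists were chosen with earlier results of these data known, and every listed gene could be named. NEFL and PECAM1 were not matched. Alternatives included DESeq2 1.42.0 size factors. TPM per longest protein-coding transcript was added after seeing the data. It was the deposited TPM times the deposited effective length, over that transcript's length less the gap between weighted and effective length. No test between conditions was possible.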

Additional observations from a re-analysis of the deposited data

How the results depend on the processing

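No paired analysis was possible because the labels give only 1 group. All 6 genes stayed detected with a threshold of 0.1 or 5 TPM and in either library alone. PPP1R15A over PPP1R15B (0.876) was 0.3905 in CPM and 0.6352 per longest protein-coding transcript, and the EIF2AK1 share of the kinases (70.1%) was 52.2% and 64.4%, because these scales treat length differently. Genes that differed between the libraries (8492) numbered 5108 with the GC trend removed and 1427 by the edgeR exact test with an assumed coefficient of variation of 0.1, which called 0 of the 6 genes in place of 4. With the GC trend removed the log2 ratio turned to -0.233 for EIF2AK2, -0.0914 for EIF2AK3, -0.0464 for EIF2AK4 and 0.2065 for PPP1R15A, and the last was also 0.0208 with library totals and 0.0934 from posterior mean TPM; the cause was not tested. Rescaling over protein-coding genes raised the levels of all 6 genes, EIF2AK1 to 246.4 TPM. With 2 libraries, no value here separates culture from library preparation, and EIF2AK3 rests on 372 and 551 counts.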
